A study of Mus musculus with 8 samples.

Results

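CD antigens are cell surface molecules numbered by the antibodies that recognise them, and 58 genes whose symbol is Cd followed by a digit were measured in the liver of 8 mice. They were found as the 77 probe sets with 1 platform gene symbol of that form, out of 12422 probe sets that are no array controls, and each gene was read by its brightest probe set, the one with the highest mean log2 signal after the floor described further on. Cd74, Cd68, Cd14 and Cd5l were left out. The whole array named 8251 genes in the same way. The rule goes by symbol, so it also took in Cd2ap and Cd2bp2, which code for an adaptor and a splicing protein that bind Cd2 and are no surface antigens.

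All 8 animals were phenotypically normal female Ames mice, of genotype +/+ or +/df at the recessive dwarf locus, which the labels do not separate. Their pelleted diet was cut to 30% less than normal females eating freely took, and livers were collected at an age of 24 to 26 months. Total liver RNA of each mouse was read on 1 Affymetrix mouse U74Av2 array, on which a set of short probes near the 3′ end reads each transcript. There is 1 group (n = 8), so levels and their spread between arrays are given, and no groups were contrasted.

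CD molecules differ widely in where they are found. Some, such as most tetraspanins and the complement regulator Cd59a, sit on nearly all cells, while others define a lineage: the Cd3 chains and the coreceptors Cd4 and Cd8 mark T cells, and Cd22 and the Cd79 chains mark B cells. Liver holds resident lymphocytes, including natural killer T cells that recognise lipids on Cd1d, beside macrophages (Kupffer cells) and sinusoidal endothelium, but hepatocytes supply most of its RNA. In RNA of whole liver, fewer cells of a type and less RNA per cell cannot be told apart.

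A level here is a signal after quantile normalization, in arbitrary units, with its mean ± SD over 8 arrays, and a level relative to the median probe set is a difference of log2 signals, given with its SE. The median probe set had a signal of 156. Signals under 24.6 were raised to that floor before log2 was taken, so members below it have no order among themselves. Each member was tested against the median probe set of its own array with limma's moderated test, adjusted by Benjamini-Hochberg over all 12422 probe sets, and called above or below it at an adjusted p of 0.05. Background was read from 50 genes of lens, retina, germ cells, pituitary, skin, teeth, nervous tissue, mammary gland and thyroid: the 75th percentile of their signals, 106 to 156 by array, served as a background line. A member was counted as well above background if it passed the same test against that line and lay above it on all 8 arrays, and as near background if its mean log2 signal was at or below the line. Probe sets differ in how strongly they bind, so the order of signals is not the order of transcript amounts.

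Replicates 5 and 6 stood apart on these arrays. The log2 ratio of 3′ to 5′ signal of the Gapdh control sets, which rises when RNA is broken or copied incompletely, reached 4.35 on replicate 5, while the other arrays gave −0.24 to 0.33. That of pyruvate carboxylase reached 4.33 on replicate 5 and 4.30 on replicate 6, while the other arrays gave 1.42 to 2.76. Hepatocyte markers were above the median for 5 of 5 measured, with albumin (Alb) at 31094 ± 749, and no pair of arrays held identical values.

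Of the 58 members, 18 were called above the median probe set, where 53.3% of all 8251 genes were, and 35 were called below it, where 36.8% of all genes were. Over single probe sets of the whole array the shares were 44.9% above and 45.1% below. As shares these are 31.0% and 60.3% of the members. Well above background lay 16 (27.6%, against 51.8% of all genes), while 6 were intermediate and 36 lay near background (62.1%, against 38.8%). The median member stood at −0.78 relative to the median probe set and the median gene at 0.54 on the log2 scale. With the median gene in place of the median probe set as the reference, 12 members were called above it, and 45.3% of genes.

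A signal above the median does not by itself show that the gene is transcribed in liver, since 6 of the 50 off-tissue genes were called above it too, with Crybb2 of the lens at 902 ± 139, and 8 of the 50 lay well above the background line. By mean log2 signal 8 members stood above every off-tissue gene: Cd164, Cd1d1, Cd302, Cd59a, Cd81, Cd47, Cd82 and Cd151. They are 13.8% of the members, and 19.5% of all genes lay above that level. The Crybb2 probe set, which fixes that level, has an ID ending that marks shared or reduced probes. Its signal may therefore hold other transcripts. Of the other off-tissue genes called above the median, Tnp1 and Lor have such endings, and Lhb, Gh and Odf1 do not. Cd99 lay above Crybb2 on the linear mean alone, at 1012 against 902, and under it on the log2 scale, at 2.48 against 2.51 relative to the median.

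**Figure D1:**
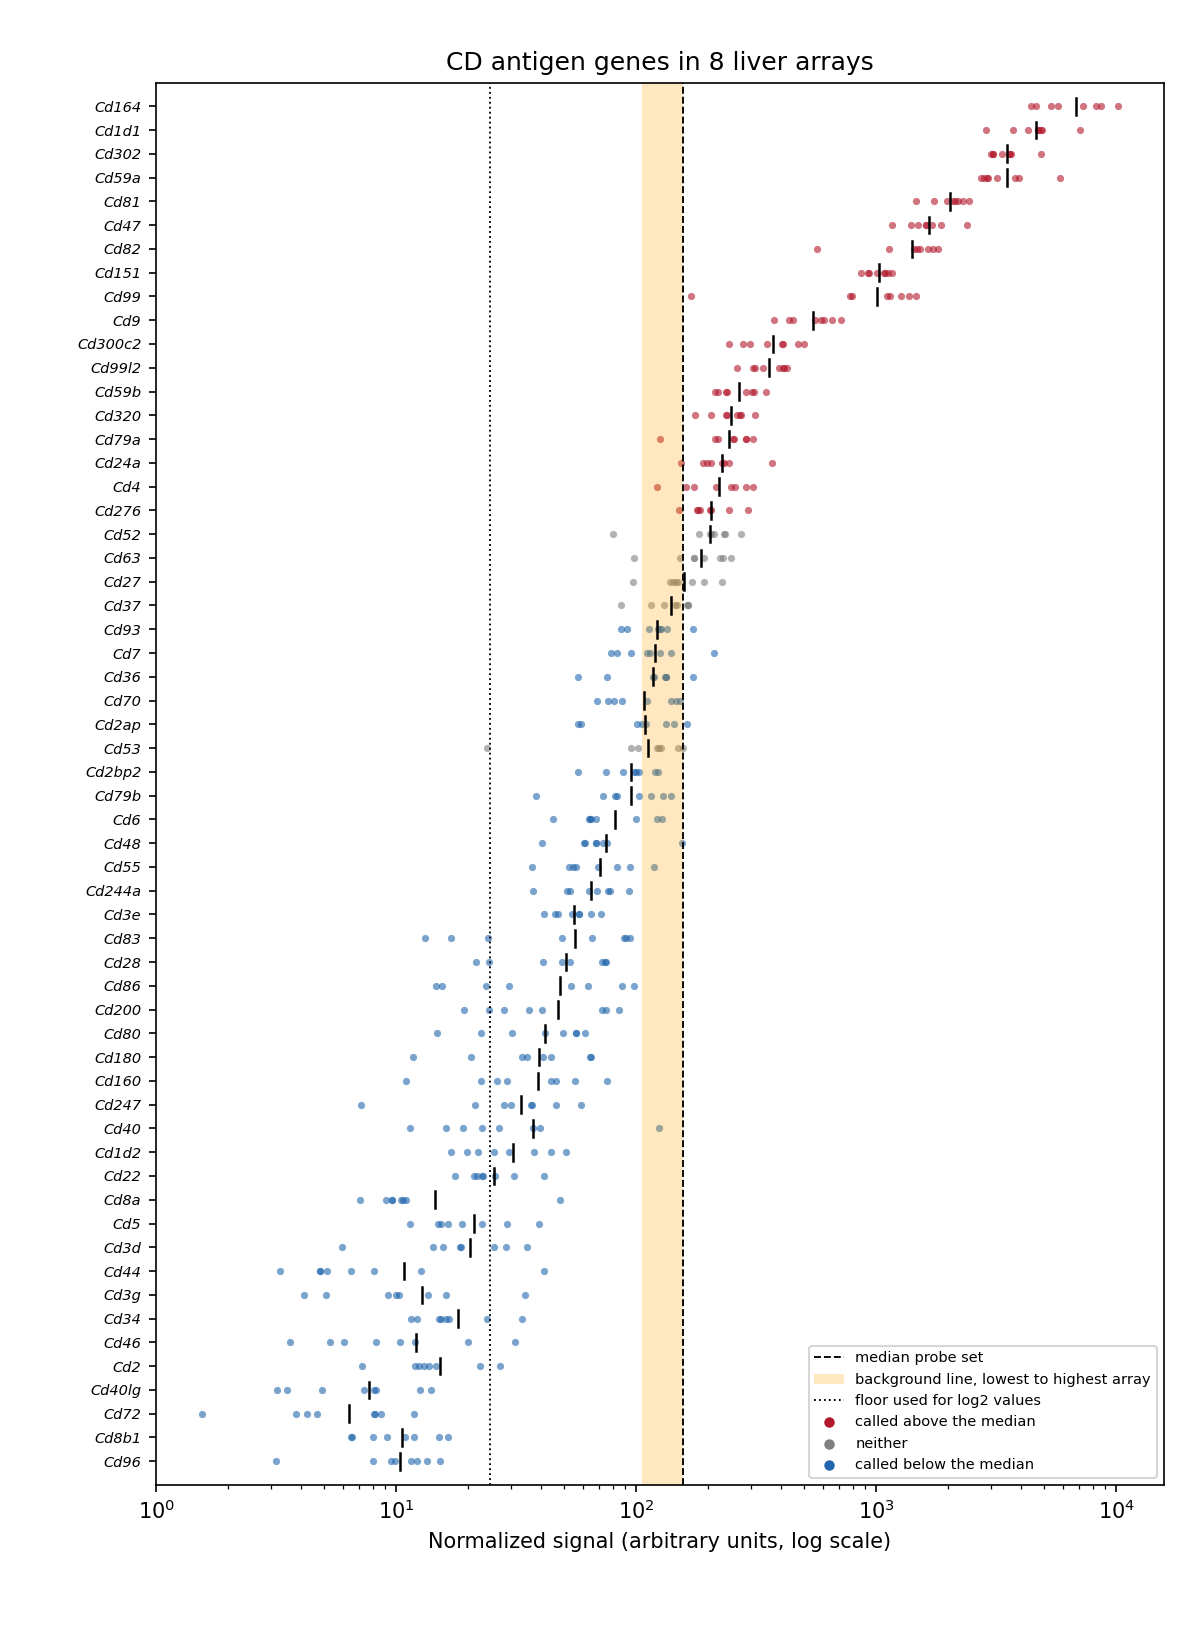
Each point is the normalized signal of 1 array (log axis, arbitrary units) for a CD antigen gene, coloured by its call against the median probe set, with a black tick at the mean over 8 arrays. The dashed line is the median probe set (156), the band spans the background line over the arrays (106 to 156) and the dotted line is the floor (24.6); 18 genes were called above the median and 35 below it.

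**Figure D2:**
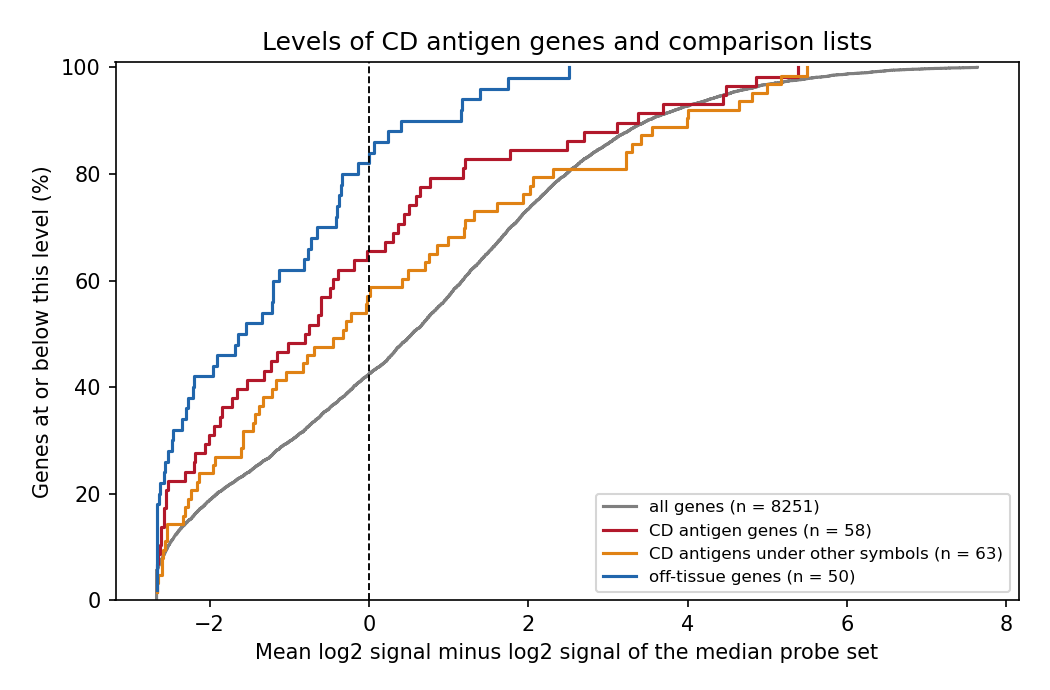
Cumulative share of genes (vertical axis, percent) against the mean log2 signal relative to the median probe set (horizontal axis) for all 8251 genes, the 58 CD antigen genes, 63 CD antigens with other symbols and 50 off-tissue genes. The median CD antigen gene lay at −0.78, between the median off-tissue gene at −1.59 and the median of all genes at 0.54.

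Promoters of 4 members are shown, the brightest member Cd164, the tetraspanin Cd81, and the lymphocyte receptor chains Cd79a and Cd3e, chosen for their level and role. Each is the 250 bases before the start of the gene from RefSeq's annotation of GRCm38.p6, 5′ to 3′, with every CG dinucleotide, the site of DNA methylation, in capitals; CG reads the same on both strands. Cd164 lies at chr10:41519250-41519499 on the plus strand, Cd81 at chr7:143052500-143052749 on the plus strand, Cd79a at chr7:24897247-24897496 on the plus strand and Cd3e at chr9:45009612-45009861 on the minus strand.
Cd164: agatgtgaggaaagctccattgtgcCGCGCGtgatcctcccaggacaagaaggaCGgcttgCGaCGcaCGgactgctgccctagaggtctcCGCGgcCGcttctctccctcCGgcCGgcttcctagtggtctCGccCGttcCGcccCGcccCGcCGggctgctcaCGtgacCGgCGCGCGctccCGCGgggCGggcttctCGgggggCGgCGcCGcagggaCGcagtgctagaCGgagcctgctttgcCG
Cd81: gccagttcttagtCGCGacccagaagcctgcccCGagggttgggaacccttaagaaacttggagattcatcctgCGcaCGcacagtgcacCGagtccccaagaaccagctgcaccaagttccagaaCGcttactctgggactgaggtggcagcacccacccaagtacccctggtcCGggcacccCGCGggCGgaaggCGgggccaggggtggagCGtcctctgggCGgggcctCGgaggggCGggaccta
Cd79a: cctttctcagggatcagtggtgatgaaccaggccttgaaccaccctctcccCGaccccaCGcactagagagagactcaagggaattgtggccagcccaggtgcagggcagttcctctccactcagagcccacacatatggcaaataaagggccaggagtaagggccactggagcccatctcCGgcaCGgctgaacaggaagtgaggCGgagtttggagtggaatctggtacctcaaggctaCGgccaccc
Cd3e: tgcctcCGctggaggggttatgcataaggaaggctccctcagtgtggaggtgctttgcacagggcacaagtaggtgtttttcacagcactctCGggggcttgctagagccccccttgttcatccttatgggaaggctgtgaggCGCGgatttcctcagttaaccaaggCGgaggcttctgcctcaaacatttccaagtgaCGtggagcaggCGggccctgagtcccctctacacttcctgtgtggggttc
The Cd164 promoter held 33 CG dinucleotides, and 4.03% of the 32851 promoters in the table held as many. Cd81 had 16, as many as 25.4% of promoters hold. Cd3e had 7 (46.3% hold as many) and Cd79a 6 (50.4%), and the median promoter also had 6. Among other bright members Cd47 had 30.5, as the mean of 2 starts, and Cd302 and Cd59a had 3 and 0. Near background, Cd2ap and Cd2bp2 had 31 and 15, and Cd8a and Cd3d had 0. The number of CG dinucleotides was not compared with the signal over all members, of which only 40 of the 58 (69.0%) matched a promoter.

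The tetraspanins are small proteins that span the membrane repeatedly and gather other receptors into patches. They were the role group with no member called below the median: 4 of 7 were called above it and 3 neither way. Of those 3, Cd37 (−0.19) and Cd53 (−0.63) had means under the median, and Cd53 had no array above it. Cd81, a broadly expressed tetraspanin that serves as a receptor for hepatitis C virus in human hepatocytes, read 1469.7 on its lowest array, 2113 at the median and 2432 on its highest, or 3.69 ± 0.08 relative to the median (adjusted p = 6.48e-10). All 8 arrays lay far above the median probe set, and replicate 5 was the lowest. Cd151, which partners laminin-binding integrins, was the steadiest of the members above the median, at 866 on its lowest array, 1043 at the median and 1168 on its highest, a 1.35-fold range (2.71 ± 0.05, adjusted p = 3.09e-10). All probe sets of Cd151 carry ID endings that mark shared or reduced probes, so its signal may hold other transcripts.

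Cd82, a tetraspanin known as a suppressor of metastasis, read 1653, 1438, 1481, 1136, 568, 1523, 1807 and 1729 on replicates 1 to 8. Replicate 5 was set apart below the other 7, and still lay above the median probe set (3.11 ± 0.19, adjusted p = 5.85e-07). Cd9, found on platelets and many epithelia, read 374 on its lowest array, 573 at the median and 711 on its highest (1.78 ± 0.11, adjusted p = 7.37e-07), again with replicate 5 lowest.

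The other 3 tetraspanins passed the test in neither direction. Cd63, a marker of late endosomes, read 175, 223, 231, 191, 97.9, 174, 249 and 153 on replicates 1 to 8, with 6 of 8 arrays above the median probe set (0.21 ± 0.15, adjusted p = 0.209). Without replicate 5, its lowest array, it was called above the median at 0.33. Cd37, a tetraspanin of B cells, read 164, 148, 116, 131, 162, 86.5, 146 and 165 on replicates 1 to 8, with 3 arrays above the median and 6 above the background line (−0.19 ± 0.11, adjusted p = 0.133). Cd53, found on leukocytes generally, was near background at 112 ± 41.3, with 24.0 on replicate 6 and 94.9 to 156 on the others. It was called neither way with all arrays (−0.63 ± 0.30, adjusted p = 0.0686) and below the median without replicate 6 (−0.34). With all 8 arrays it was also called below the median with deposited scaling (−0.61), with the floor at the 40th (−0.40) or the 5th percentile (−0.64) and with arrays weighted by quality (−0.51).

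Regulators of complement and other widely expressed surface proteins came next, with 5 of 7 above the median and 2 below it. Cd59a, a lipid-anchored inhibitor of the membrane attack complex, read 3800.4, 2895, 2732, 3945, 5819, 3186, 2929 and 2812 on replicates 1 to 8, highest on replicate 5 (4.45 ± 0.13, adjusted p = 3.86e-09). Its duplicate Cd59b read 212 on its lowest array, 263 at the median and 347 on its highest (0.76 ± 0.09, adjusted p = 5.33e-05). The copies are close in sequence, so part of the Cd59b signal may come from Cd59a. Cd47, the ligand by which cells signal to macrophages not to engulf them, read 1501, 1707, 1614, 1872, 2383, 1610.0, 1166 and 1392 (3.38 ± 0.11, adjusted p = 6.51e-09), highest on replicate 5 as well.

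Cd99, an adhesion molecule of leukocyte passage through endothelium, read 1143, 1264, 1109.9, 1371, 169, 792, 1465 and 777 on replicates 1 to 8. Replicate 5 stood just above the median probe set and the other 7 far above it, for a mean difference of 2.48 ± 0.36 (adjusted p = 0.000163). Its relative Cd99l2 read 262 on its lowest array, 366 at the median and 424 on its highest (1.18 ± 0.09, adjusted p = 2.69e-06). Cd55, which speeds the decay of complement convertases, was near background at 70.7 ± 26.8, and Cd46, a cofactor of complement cleavage that in mice is largely confined to testis, was at the floor on 7 of 8 arrays. The complement regulators measured thus stood on both sides of the median, Cd59a and Cd59b above and Cd55 and Cd46 below.

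Among molecules that handle lipids, 2 of 4 were above the median. Cd1d1, which presents lipids to natural killer T cells, read 4881, 4731, 4746, 4292, 7068, 2872, 3725 and 4925 on replicates 1 to 8, with replicate 6 lowest and replicate 5 highest (4.86 ± 0.13, adjusted p = 2.18e-09). A probe set shared by Cd1d1 and its duplicate Cd1d2, which was assigned to neither gene, read 5703 ± 811, and the probe set of Cd1d2 alone 30.8 ± 12.3, near background. The genes are near copies, so how the signal divides between them is uncertain. Cd320, the receptor that takes up vitamin B12 bound to transcobalamin, read 176 on its lowest array, 252 at the median and 314 on its highest (0.64 ± 0.09, adjusted p = 0.000165).

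Cd36, a scavenger receptor that takes up long-chain fatty acids, was near background, at 133, 117, 134, 119, 173, 57.4, 75.5 and 132 on replicates 1 to 8. It lay under the median on 7 of 8 arrays (−0.48 ± 0.18, adjusted p = 0.0289) and above the background line on 4. Without replicate 7 it was −0.40 and the call below the median was lost.

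In the endothelial and stem cell group, 1 of 3 members was above the median. Cd164, a sialomucin of adhesion and of lysosomes whose promoter is printed, had the highest signal of all members, at 5699, 7267, 8632, 5339, 10199, 4418, 4656 and 8281 on replicates 1 to 8 (5.39 ± 0.16, adjusted p = 3.76e-09). The arrays spread 2.31-fold, from replicate 6 to replicate 5, and all lay far above the median. Cd93, a receptor of endothelium and myeloid cells, was the member just under the background line, at 126, 91.2, 86.8, 134, 127, 113, 173 and 124 (−0.39 ± 0.11, adjusted p = 0.00894), and 3 of 8 arrays lay above the line. Cd34, the sialomucin of capillary endothelium and blood stem cells, was at the floor on 7 of 8 arrays. Of 10 other endothelial markers 5 were above the median, the brightest being endoglin (Eng) at 2534 ± 328. Pecam1, Vwf, Lyve1 and Icam2 were below it and near background, and Tek was called neither way.

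T cell receptor chains, coreceptors and other T and natural killer cell molecules were the largest role group, and 16 of 18 lay below the median and near background. The receptor chains were all below the median. Cd3e, which every T cell carries and whose promoter is printed, read 41.4 on its lowest array, 55.8 at the median and 71.2 on its highest, below the median on all arrays (−1.53 ± 0.09, adjusted p = 5.91e-07). Cd3d, Cd3g and Cd247 (the ζ chain) read 20.3 ± 9.18, 12.9 ± 9.54 and 33.3 ± 15.7, with 5, 7 and 2 of 8 arrays at the floor. The coreceptor chains Cd8a and Cd8b1 were at the floor on 7 and 8 arrays.

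Cd4, the coreceptor of helper T cells, was the one T cell member above the median. It read 249.6, 161, 173, 259, 214, 306, 287 and 122 on replicates 1 to 8, above the median on 7 of them (0.44 ± 0.16, adjusted p = 0.0263). The call missed the threshold without replicate 1, 4, 5, 6 or 7, at 0.41, 0.40, 0.44, 0.37 and 0.39, without both 5 and 6 (0.35) and with arrays weighted by quality (0.35). Its level was also under that of 5 off-tissue genes, as were those of Cd59b, Cd320, Cd79a and Cd24a. Cd276 lay under those 5 and Odf1.

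Cd27, a costimulatory receptor of the tumour necrosis factor family, was the member closest to the median, at 171, 149, 143, 96.7, 147, 193, 228 and 139 on replicates 1 to 8 (−0.022 ± 0.13, adjusted p = 0.871), and its ligand Cd70 was near background at 108 ± 34.1. That probe set has an ID ending of shared probes. Read by its other probe set Cd27 was called below the median at −1.39, and with the mean over both at −0.71. Cd7, an early T cell molecule, was 119.7 ± 42.4, from 78.2 on replicate 5 to 211 on replicate 6, below the median with all arrays (−0.45 ± 0.16, adjusted p = 0.0238) but not past the threshold without replicate 1, 5 or 8 (−0.39, −0.37 and −0.41). Cd28, the main costimulatory receptor of T cells, was 51.2 ± 21.5. Its ligands Cd80 and Cd86, carried by antigen-presenting cells, were 41.6 ± 17.2 and 48.3 ± 32.6. Cd48 and its receptor Cd244a, a pair that tunes natural killer cells, were 75.2 ± 33.9 and 65.2 ± 17.9.

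The scavenger-receptor molecules Cd5 and Cd6, which restrain T cell receptor signals, read 21.0 ± 9.24 and 82.0 ± 30.7, and Cd160 of cytotoxic cells 38.9 ± 20.8. The adhesion receptor Cd2 was at the floor on 7 arrays, and Cd96 and the helper cell ligand Cd40lg were at the floor on all 8. Of 9 T and natural killer cell genes with other symbols, 3 were above the median: the kinase Zap70 at 1323 ± 299, the adaptor Lat at 486 ± 126 and Ptprcap at 338 ± 67.2. The Zap70 probe set has an ID ending of shared probes, so its signal may hold other transcripts. Thy1 and the granule genes Gzma, Gzmb and Prf1 were near background.

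Among B cell molecules, 2 of 8 were above the median and 6 below it. Cd79a, a signalling chain of the B cell receptor whose promoter is printed, read 219, 306, 286, 255, 253, 126, 286 and 212 on replicates 1 to 8 (0.59 ± 0.14, adjusted p = 0.00369). Replicate 6 alone lay under the median probe set. Its partner chain Cd79b was near background at 95.3 ± 33.1, from 38.2 on replicate 7 to 139 on replicate 3 (−0.81 ± 0.21, adjusted p = 0.00532), so the chains of 1 receptor stood on opposite sides of the median. Cd24a, a lipid-anchored protein of immature B cells and also of bile duct cells, read 227, 368, 154, 206, 244, 191, 231 and 197 (0.50 ± 0.13, adjusted p = 0.00504), highest on replicate 2.

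The other B cell members were near background. The inhibitory lectin Cd22 read 25.6 ± 7.49, the Toll-like protein Cd180 39.4 ± 18.7 and the activation marker Cd83 55.4 ± 34.4. Cd40, through which helper T cells activate B cells, read 37.2 ± 36.7, a mean carried by 125 on replicate 4, and Cd72 was at the floor on all arrays. Of 9 other B and plasma cell markers, Ms4a1 (which codes for CD20) at 325 ± 109.9 and the transcription factor Pax5 at 204 ± 38.7 were above the median, 6 were below it and 1 neither.

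Myeloid and costimulatory molecules had 2 of 7 above the median. Cd302, a C-type lectin of macrophages that is also found in liver, read 3336, 3596, 3643, 3004, 4881, 3073, 3059 and 3577 on replicates 1 to 8 (4.48 ± 0.08, adjusted p = 1.39e-10). Its arrays other than replicate 5 lay between 3004 and 3643. Cd276, a relative of the costimulatory B7 ligands, read 184, 203, 179, 180.2, 150.3, 294, 244 and 205 (0.36 ± 0.11, adjusted p = 0.00935) and was the member just inside the threshold by level. Cd52, a short lipid-anchored peptide on lymphocytes, was the one just outside, at 232, 206, 203, 235, 275, 80.3, 183 and 210.3 (0.30 ± 0.19, adjusted p = 0.147); without replicate 6, its lowest array, it was called above the median at 0.49. Cd200, an inhibitory ligand for myeloid cells, read 47.5 ± 25.8, and the hyaluronan receptor Cd44 was at the floor on 7 of 8 arrays. Its probe set was chosen through the remaining array, at 41.1 on replicate 6, and a set with a higher linear mean (12.8 ± 4.19 against 10.8 ± 12.6) was at the floor on all 8.

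Cd300c2, of a family of paired myeloid receptors, was in no role group and stood above the median at 352, 279, 298, 499, 411, 245, 406 and 473 on replicates 1 to 8 (1.2 ± 0.13, adjusted p = 2.72e-05). It was highest on replicate 4 and lowest on replicate 6. Kupffer cell and macrophage markers were above the median for 10 of 12, the brightest being the Kupffer cell lectin Clec4f at 1432 ± 194. Adgre1 (115 ± 37.9) and Marco (16.6 ± 6.43) were below it and near background. The intracellular Cd2ap and Cd2bp2 were both near background at 109 ± 37.8 and 95.6 ± 22; for Cd2ap the call below the median was lost without replicates 5 and 6 (−0.49).

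Of the 58 genes, 15 were read by more than 1 probe set, and for 3 of them (Cd151, Cd82 and Cd276) the probe sets differed in whether they were called above the median. For Cd82 the probe sets read 1417 ± 400.1, 280.0 ± 50.1 and 11.4 ± 8.55, and for Cd276 205 ± 44.8 and 26.9 ± 14.1. For Cd151, 3 probe sets lay between 801 and 1024 and the other one at 7.68 ± 3.21. Both sets of Cd47 were bright, at 1656 ± 362 and 1014 ± 258. Those of Cd36 read 118 ± 36.1 and 1.73 ± 0.45, and those of Cd27 158 ± 39.3 and 67.8 ± 34.6. In the remaining 9 genes (Cd247, Cd2bp2, Cd34, Cd3d, Cd44, Cd6, Cd80, Cd83 and Cd86) all sets were near background. Averaged over its probe sets, Cd276 stood at −1.0 relative to the median, on the other side from its brightest set.

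**Figure D3:**
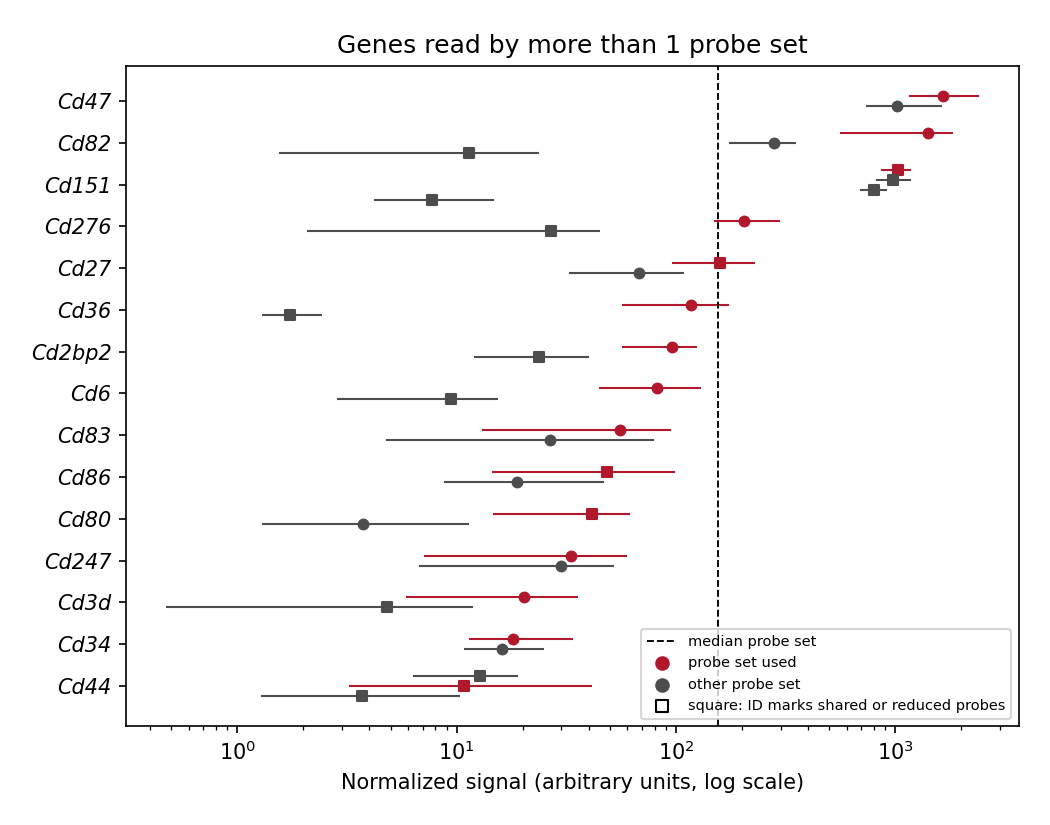
Mean signal (log axis, arbitrary units) of every probe set of the 15 CD antigen genes with more than 1, with a line from the lowest to the highest of 8 arrays. Red marks the probe set used for the gene and squares mark IDs of shared or reduced probes; the probe sets of Cd82 run from 11.4 to 1417 and those of Cd47 from 1014 to 1656.

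How far the members differed between animals was examined next. Of the members above the median, 10 of 18 had a highest array more than 2-fold above the lowest. The range ran from 1.35-fold for Cd151 to 8.65-fold for Cd99. The share of all genes above the median with such a range was not computed, so the count cannot be called particular to the members. limma's test compared a probe set's variance with that of probe sets of like level. It was run on probe sets whose mean log2 signal exceeded the median of such means, a cut that took in Cd27. The test called 0 of the 21 members kept, and 0 of all 6211 such probe sets (0%). Since it called no probe set at all, it cannot show that the members vary little. With an unadjusted threshold of 0.05 it took in 1 member, Cd99, whose adjusted p was 0.842, and 5.67% of all. The median SD of those 21 was 0.37 on the log2 scale, and that of all 6211 was 0.28.

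Of the 16 members well above background, 5 had their highest value on replicate 5 (Cd164, Cd1d1, Cd302, Cd59a and Cd47) and 5 their lowest there (Cd81, Cd82, Cd99, Cd9 and Cd99l2). Over all genes well above background those shares were 35.3% and 27.2%. The part of the 3′ to 5′ ratio in these values was not tested. Without replicates 5 and 6, Cd99 read 1188 ± 242, Cd82 1541 ± 243, Cd59a 3186 ± 539, Cd1d1 4550.1 ± 463, Cd302 3369 ± 283, Cd47 1542 ± 248, Cd81 2146 ± 236, Cd79a 261 ± 38.5, Cd52 211 ± 19.7 and Cd164 6646 ± 1647 (SD, n = 6), and 19 members were called above the median, with 53.4% of all genes.

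**Figure D4:**
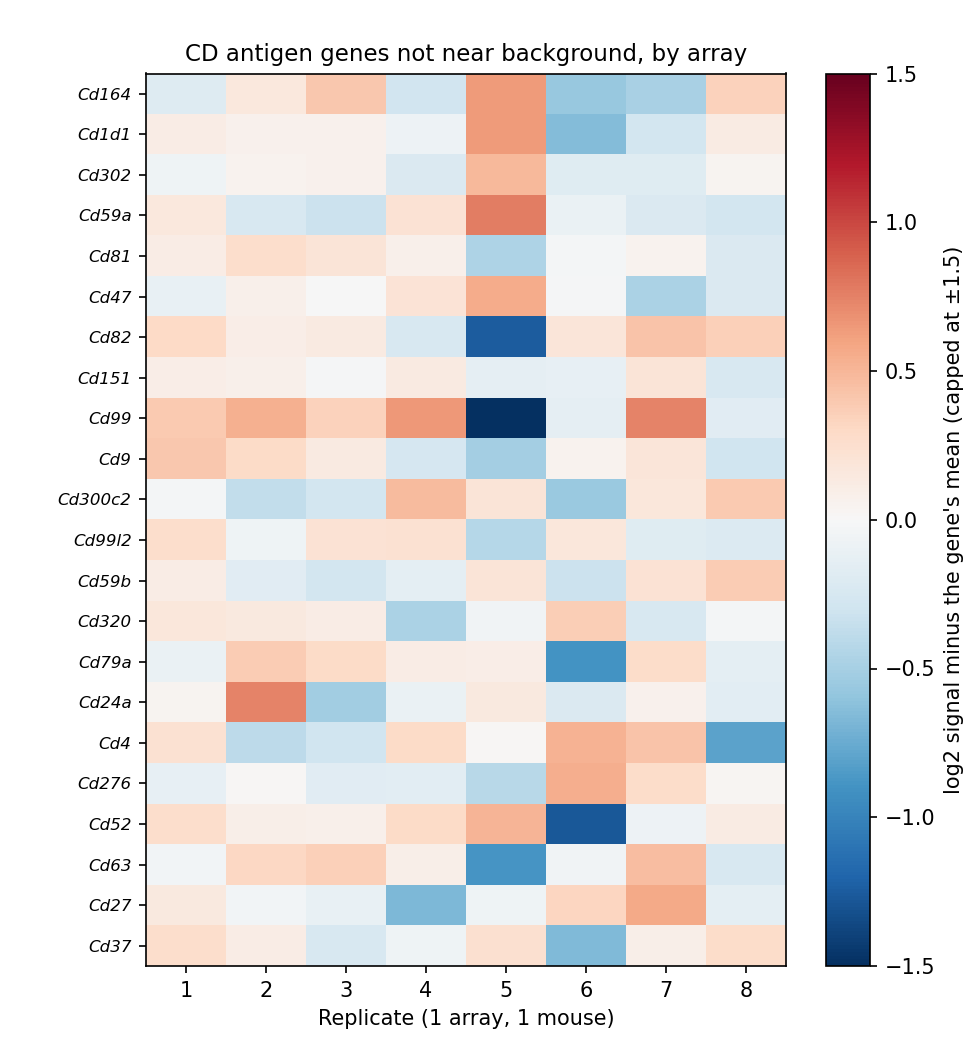
Log2 signal of each array minus the gene's mean over 8 arrays (colour, capped at ±1.5) for the 22 CD antigen genes not near background, from the highest level at the top to the lowest, with replicates 1 to 8 across. On replicate 5 Cd164, Cd1d1, Cd302, Cd59a and Cd47 were at their highest and Cd82 and Cd99 at their lowest; on replicate 6 Cd79a, Cd52 and Cd37 were at their lowest.

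On replicate 6, 7 of the 22 members not near background had their lowest value: Cd164, Cd1d1, Cd300c2, Cd59b, Cd79a, Cd52 and Cd37. For the 16 well above background the count was 5, and 16.8% of all such genes were lowest there. Those far under their other arrays, chosen after their values were seen, were Cd79a at 126 against 212 to 306 on the others, Cd52 at 80.3 against 183 to 275 and Cd37 at 86.5 against 116 to 165, as was Cd53 among those near background. Other members were highest there, among them Cd4 (306), Cd276 (294), Cd320 (314) and Cd7 (211). Marker lists of cell types stood on both sides of their other arrays there. The summed signal of 9 B and plasma cell markers was highest there, at 1385 in a range of 852 to 1385. Ms4a1 read 560.5 against 213 to 359 on the others and Blk was also at its highest (171), while Jchain was at its lowest (67.9). The sum was thus not a rise of every marker. The summed signal of 9 T and natural killer cell markers was 2629 in a range of 1669 to 3037. That of 12 macrophage markers was 7388, almost the same as the 7392 on replicate 5, in a range to 9265. Among those markers Clec4f was at its highest on replicate 6 (1781), while Cd5l (502) and Lyz2 (227) were at their lowest. The 4 erythroid markers summed to 2966 against 6781 to 7814 on the others, a sum made up mostly of Hba-a1, at 2395 against 5989 to 7174. Alas2 was also at its lowest there (314), while Epb42 was at its highest (122) and Slc4a1 read 135 in a range of 38.8 to 163. The part of these cell types in the levels of the CD antigen genes was not tested.

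CD antigens that go by other gene symbols were set beside these genes, from a list of 68, of which 63 were measured. Of those, 25 were above the median (39.7%) and 33 below it, with a median of −0.32 relative to the median probe set. The brightest were the lysosomal membrane proteins Lamp1 at 7099 ± 958 and Lamp2 at 4989 ± 486, the integrin chain Itgb1 at 5644 ± 520.0 and Bsg, a chaperone of lactate transporters, at 4552 ± 1094. The Itgb1 probe set has an ID ending of shared probes, so its signal may hold other transcripts.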

How the data were processed

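Deposited values were intensities on a linear scale, 1 per probe set and array. Per the labels, a GeneArray scanner read the arrays and the images were analysed by an earlier published procedure, with software, background handling and scaling not given in the sources used here. From these, 66 control probe sets were left out and the other 12422 were quantile-normalized with limma 3.58.1 in R 4.3.3, which gives every array the same distribution. Values under the 20th percentile (24.6) were raised to it and log2 was taken.

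Symbols came from the platform annotation: 10833 probe sets had 1, 396 several and 1193 none, and no symbol changed against RefSeq gene identifiers. Level tests fitted an intercept to log2 signal minus the array's median or background line, with a trended, robust prior, 2-sided. Variance tests were 1-sided, with 7 residual and 4.03 prior degrees of freedom. Both were run on simulated data. For the variance test the raised spread there far exceeded that of Cd99, the most variable member by that test, so smaller differences were not checked. Each label names a mouse, and p-values measure only the spread between these 8 arrays, whose number limits the precision. The labels' replicate numbers name arrays and pair nothing. Members, lists and tests were chosen with earlier results of these data known. Every member was named. Values in every array were given for members above the median whose arrays differed by more than 2-fold, for those nearest the median, and for a few others chosen after their values were seen. Alternatives changed the scaling, the floor, the choice of probe set, the reference, the background line, the level filter and the arrays used.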

Additional observations from a re-analysis of the deposited data

Results flagged for a closer look

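Among the 34 members with no array at the floor, 6 had 1 array set apart from the other 7. The gap was a larger share of the gene's whole log2 range than Dixon's critical value for 8 samples, and chance alone flags about 1 in 20 groups. The rule was not run on all genes, so the count cannot be called particular to the members. Over all genes well above background, 35.3% were highest and 27.2% lowest on replicate 5, and 18.9% and 16.8% on replicate 6. On replicate 5, Cd302 read 4881, with the next highest array at 3643, and Cd48 155, with the next highest at 75.3. On the same replicate Cd82 read 568, with the next lowest array at 1136, and Cd99 169, with the next lowest at 777. On replicate 6, Cd79a read 126 and Cd52 80.3, with the next lowest arrays at 212 and 183. These are the arrays with raised 3′ to 5′ ratios of the pyruvate carboxylase control, whose part in these values was not tested.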

How the results depend on the processing

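The number of members above the median probe set was 18 and lay between 12 and 19 under the alternatives, 12 with the median gene as the reference and 17 to 18 with any single array left out. The number well above background was 16, and 16 to 18 with any single array left out. It depended on the background line: with the line at the 50th percentile of the off-tissue genes 26 members were well above it (65.3% of all genes), and at the 90th percentile 10 (38.1%). The number near background was 36 with any single array left out. With those lines it was 24 (23.9% of all genes) and 44 (51.1%). Without probe sets of shared or reduced probes 54 genes remained. Of these, 17 were above the median (51.6% of all genes), 20 well above background (57.7%) and 26 near it (32.7%). No member passed the variance test under any alternative. Single members kept their direction and their call in 387 of 402 values under the other alternatives and in 451 of 464 with an array left out. The direction turned for Cd276 with the mean over probe sets (−1.0). For Cd27 it turned without replicate 4, with values between −0.10 and 0.074 as arrays were left out in turn, none of them past the threshold. No paired analysis was possible because the labels give 1 group. Signals near the background line, as for Cd4, Cd276, Cd52 and Cd63, are where array signal limits the calls.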
